A study of Mus musculus with 4 samples.

Results

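The 2 regions described here are large olfactory receptor gene clusters of the mouse genome: the 5 Mb of chr2:85000001-90000000 and the 3.5 Mb of chr9:37000001-40500000 (mm8). They were taken whole, as all 850 of their 10 kb bins (500 on chromosome 2 and 350 on chromosome 9), of 236854 autosomal bins that held a read in any library. They were set by position and not by a measured value, though earlier results of these data were known. In 844 of the 850 bins at least 1 library held a read, and 6 bins of the chromosome 2 cluster were empty in all 4 libraries. The 5 Mb on each side of each cluster, 2000 bins in all, served as its flanks.

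Olfactory receptors are G protein-coupled receptors that bind odorants, and their genes form the largest gene family of the mouse. Most lie in long clusters that arose by repeated duplication, so that neighbouring genes and their surroundings resemble each other. Each olfactory neuron expresses a single allele of a single receptor gene, while the rest stay silent in compact chromatin, and most other cell types transcribe almost none of them. Total histone H3 is a core histone of every nucleosome, and chromatin immunoprecipitation with sequencing (ChIP-seq) against it follows nucleosome-bound DNA rather than any active or repressive mark. No expression data were used here, so the silence of the receptor genes in these cells was not checked.

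Total H3 was precipitated with the same anti-H3 antibody (Abcam AB1791) in 4 libraries, 1 for each group. The groups were V6.5 embryonic stem (ES) cells given 10 uM SB431542 for 24 h, C2C12 myotubes formed over 48 h in 2% horse serum, the pro-B cell line 38B9, and untreated V6.5 ES cells. SB431542 is an inhibitor of the TGF-beta type I receptor kinase. The ES cells have a C57BL/6-129 background and were taken off their embryonic fibroblast feeders before the experiment, while the labels give no strain for C2C12, a myoblast line, or for 38B9. Per the file headers the SB431542 library came from a different sequencing run from the other 3 libraries, so the run and the treatment cannot be told apart. All libraries were of like depth, between 13102915 and 13852985 distinct read positions, and the median 10 kb bin held between 53 and 59 positions on chromosomes 2 and 9. With 1 library per group, no comparison between groups below has a replicate check or a test. Intervals in parentheses are at 95% and cover counting error alone. No input library was used here, so H3 recovery, DNA copy number and the part of a region to which a read can be given a single place cannot be told apart.

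In the RefSeq annotation of a later build (GRCm38.p6), used only for gene names and neighbours, 1428 genes carry an Olfr name, 377 of them on chromosome 2 and 179 on chromosome 9. The longest run on chromosome 2 with no more than 1 Mb between the starts of neighbouring Olfr genes holds 293 of them (222 protein-coding and 71 pseudogenes), with 3 other protein-coding genes inside it. It lies between Lrrc55 and Ptprj, a receptor-type tyrosine phosphatase. The longest run on chromosome 9 holds 127 Olfr genes (95 protein-coding and 31 listed as pseudogenes), again with 3 other protein-coding genes inside, between Panx3, a pannexin channel gene, and Zfp202, a zinc finger gene. A genome or annotation of mm8 was not used here, so no gene was placed on a bin.

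The reads were aligned over 36 bases, and the RefSeq promoter windows (250 bases before to 50 after a gene's start, GRCm38.p6) show how often genes of these runs share a stretch of that length. Of the 187 windows found for 186 genes of the chromosome 2 run, 41 (21.9%) shared a run of 36 bases with another gene's window. The count was 16 of 80 windows (20%, 79 genes) in the chromosome 9 run, against 3238 of 32851 windows (9.86%) over all genes. The windows were also poor in G and C, with a median of 32% in the chromosome 2 run, 35.5% in the chromosome 9 run and 52.7% over all genes. No CG dinucleotide was present in 35.8% of the chromosome 2 windows and 30% of the chromosome 9 windows, against 5.43% over all genes. A pair of windows from each run is given here to show what such sharing looks like, with shared bases in capitals. It was picked for the most 36-base words held by exactly 2 windows. Words held by further windows did not enter the ranking. On chromosome 2 the windows of Olfr1506 (chr2:90224422-90224721, minus strand) and Olfr1565 (chr2:90321972-90322271, plus strand) were identical over all 300 bases, so only the first is printed. On chromosome 9 the windows of Olfr875 (chr9:37772387-37772686, plus strand) and Olfr876 (chr9:37803639-37803938, plus strand) shared their last 124 bases.
Olfr1506: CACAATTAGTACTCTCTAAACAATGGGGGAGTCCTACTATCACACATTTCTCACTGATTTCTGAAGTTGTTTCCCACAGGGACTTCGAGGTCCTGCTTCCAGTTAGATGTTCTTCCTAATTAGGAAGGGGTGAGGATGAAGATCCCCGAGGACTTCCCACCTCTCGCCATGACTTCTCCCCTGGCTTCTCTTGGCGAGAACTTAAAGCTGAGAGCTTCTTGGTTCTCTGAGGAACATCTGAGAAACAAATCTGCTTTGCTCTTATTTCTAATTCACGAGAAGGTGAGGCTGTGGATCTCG
Olfr875: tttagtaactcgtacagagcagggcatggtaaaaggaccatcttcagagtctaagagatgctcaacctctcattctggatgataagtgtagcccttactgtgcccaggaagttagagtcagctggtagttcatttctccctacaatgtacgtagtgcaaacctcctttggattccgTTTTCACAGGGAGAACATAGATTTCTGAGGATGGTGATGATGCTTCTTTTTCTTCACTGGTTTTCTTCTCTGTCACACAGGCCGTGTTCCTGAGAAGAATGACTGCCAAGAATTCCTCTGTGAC
Olfr876: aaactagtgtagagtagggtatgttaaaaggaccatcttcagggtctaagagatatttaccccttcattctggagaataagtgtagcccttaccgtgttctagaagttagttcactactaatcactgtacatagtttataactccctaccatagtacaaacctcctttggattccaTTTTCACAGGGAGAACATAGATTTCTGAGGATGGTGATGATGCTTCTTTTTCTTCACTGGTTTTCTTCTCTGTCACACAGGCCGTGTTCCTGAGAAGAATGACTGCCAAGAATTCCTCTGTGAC
A 36-base read from the capitals of such a pair has more than 1 place in that build. These windows were not placed on the mm8 reads.

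The chromosome 2 cluster held less H3 signal than its flanks in all 4 libraries. The level used throughout is the number of distinct positions of reads with 1 place, per 10 kb bin, over the library's median bin on the same chromosome. The cluster held 21149 positions in SB431542-treated ES cells, 20349 in myotubes, 23889 in pro-B cells and 20258 in untreated ES cells. Its mean level was 0.726 (0.716 to 0.735) in SB431542-treated ES cells, 0.749 (0.739 to 0.759) in myotubes, 0.879 (0.868 to 0.890) in pro-B cells and 0.707 (0.697 to 0.717) in untreated ES cells. The flanks of the same libraries stood at 0.962 in SB431542-treated ES cells, 0.954 in myotubes, 1.12 in pro-B cells and 0.972 in untreated ES cells. The ratio of cluster to flanks was 0.754 (0.743 to 0.766) with SB431542, 0.785 (0.772 to 0.798) in myotubes, 0.788 (0.776 to 0.8001) in pro-B cells and 0.727 (0.716 to 0.739) in untreated ES cells. Every one of these intervals lay below 1, and untreated ES cells gave the lowest ratio.

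The chromosome 9 cluster lay nearer to its flanks, and the ratio to flanks differed more between libraries there. It held 19584 positions in SB431542-treated ES cells, 16138 in myotubes, 16045 in pro-B cells and 18577 in untreated ES cells. Its mean level was 0.948 (0.935 to 0.962) with SB431542, 0.854 (0.841 to 0.867) in myotubes, 0.865 (0.852 to 0.878) in pro-B cells and 0.8996 (0.887 to 0.913) in untreated ES cells, while its flanks stood at 0.979 with SB431542, 0.963 in myotubes, 1.07 in pro-B cells and 0.983 in untreated ES cells. The ratio of cluster to flanks was 0.969 (0.953 to 0.985) with SB431542, 0.887 (0.871 to 0.902) in myotubes, 0.809 (0.795 to 0.823) in pro-B cells and 0.915 (0.8999 to 0.930) in untreated ES cells. The pro-B ratio was the lowest of the 4 here, but with flanks of 2 Mb it was 1.01. On chromosome 2 the pro-B and myotube intervals overlapped, and their order changed with the treatment of reads with 2 places and with the flanks used.

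**Figure D1:**
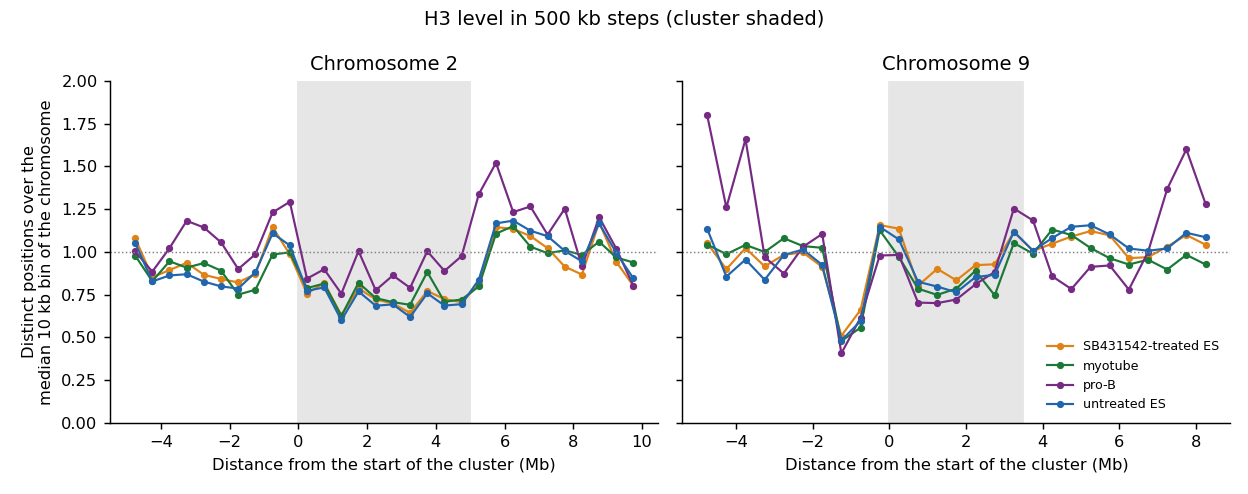
Level of H3 signal (distinct positions per 10 kb bin over the median bin of the chromosome) in 500 kb steps across each cluster (shaded) and its 5 Mb flanks; lines are the 4 libraries. All 4 lines are lower inside the chromosome 2 cluster than in the step before it, while on chromosome 9 the outermost steps of the cluster stand near 1 and a deeper dip lies in the proximal flank.

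In 500 kb steps the low level filled the whole chromosome 2 cluster in both ES libraries and in myotubes, while pro-B cells reached the chromosome median in 2 of its 10 steps. Those 2 steps were still below the median of the flank steps in pro-B cells, which was 1.12. The median flank step was 0.925 with SB431542, 0.973 in myotubes and 0.969 in untreated ES cells. The level ran from 0.630 to 0.819 over the 10 steps in SB431542-treated ES cells, from 0.625 to 0.882 in myotubes, from 0.756 to 1.005 in pro-B cells and from 0.600 to 0.792 in untreated ES cells. The lowest step in every library was chr2:86000001-86500000, with 1857 positions in SB431542-treated ES cells, 1718 in myotubes, 2078 in pro-B cells and 1741 in untreated ES cells. The highest step was not shared: it was chr2:85500001-86000000 in both ES libraries, chr2:88500001-89000000 in myotubes and chr2:86500001-87000000 in pro-B cells (1.005, with 1.004 in the myotube step). At the distal border the level was 1.15 in SB431542-treated ES cells, 1.11 in myotubes, 1.52 in pro-B cells and 1.17 in untreated ES cells by chr2:90500001-91000000. The step between, chr2:90000001-90500000, is counted with the flank although only 39 of its 50 bins held a read in any library, and its level was 0.810 with SB431542, 0.798 in myotubes, 1.34 in pro-B cells and 0.838 in untreated ES cells.

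The steps of the chromosome 9 cluster were not alike. The first step, chr9:37000001-37500000, had levels of 1.14 with SB431542, 0.971 in myotubes, 0.982 in pro-B cells and 1.07 in untreated ES cells. The last step, chr9:40000001-40500000, had levels of 1.12 with SB431542, 1.05 in myotubes, 1.25 in pro-B cells and 1.12 in untreated ES cells. Without these outer steps the mean level of the remaining 250 bins was 0.877 (0.862 to 0.893) in SB431542-treated ES cells, 0.791 (0.776 to 0.806) in myotubes, 0.764 (0.749 to 0.779) in pro-B cells and 0.821 (0.807 to 0.836) in untreated ES cells. The lowest step differed between libraries: chr9:37500001-38000000 with SB431542 (0.802), chr9:39500001-40000000 in myotubes (0.746), chr9:38000001-38500000 in pro-B cells (0.7004) and chr9:38500001-39000000 in untreated ES cells (0.764). The proximal flank held a lower stretch than any of these, chr9:35500001-36000000, at 0.510 with SB431542, 0.479 in myotubes, 0.406 in pro-B cells and 0.482 in untreated ES cells. Against the proximal flank alone, the chromosome 9 cluster stood at 1.04 with SB431542, 0.911 in myotubes, 0.809 in pro-B cells and 1.01 (0.989 to 1.03) in untreated ES cells. Against the distal flank alone it stood at 0.906 with SB431542, 0.863 in myotubes, 0.809 in pro-B cells and 0.838 in untreated ES cells.

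Both clusters were set against windows of their own length taken every 500 kb along the autosomes. Of 4458 windows, 1.28% were lower than the chromosome 2 cluster in SB431542-treated ES cells, 3.01% in myotubes, 11.9% in pro-B cells and 1.23% in untreated ES cells. Of 4488 windows, 34.7% were lower than the chromosome 9 cluster with SB431542, 12.1% in myotubes, 12.9% in pro-B cells and 26.8% in untreated ES cells. The chromosome 2 cluster thus lay near the low end of the autosomes in both ES libraries and in myotubes, and the chromosome 9 cluster did not.

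The bins of the chromosome 2 cluster varied widely around their low mean. Bins under 0.5 times the chromosome median made up 130 of the 494 bins with a read in SB431542-treated ES cells (26.3%, against 9.41% of all autosomal bins), 126 in myotubes (25.5%, against 9.98%), 102 in pro-B cells (20.6%, against 10.1%) and 134 in untreated ES cells (27.1%, against 9.93%). In 87 of the 494 bins this held in all 4 libraries, as it did in 60 of 985 bins of the flanks. On chromosome 9 the counts were nearer to the autosomal share, at 37 of 350 bins with SB431542 (10.6%), 44 in myotubes (12.6%), 58 in pro-B cells (16.6%) and 45 in untreated ES cells (12.9%). There 26 of the 350 bins were low in all 4 libraries, beside 52 of 999 bins of the flanks. The autosomal share of bins low in all 4 libraries is not given here. Bins over 1.5 times the median numbered 0 in the chromosome 2 cluster with SB431542 (autosomes 2.75%), 5 in myotubes (autosomes 2.92%), 32 in pro-B cells (6.48%, autosomes 14.0%) and 2 in untreated ES cells (autosomes 1.99%). In the chromosome 9 cluster they numbered 14 with SB431542, 2 in myotubes, 17 in pro-B cells (4.86%) and 3 in untreated ES cells. The pro-B shares in the clusters were below the 16.9% of the chromosome 2 flanks and the 16.2% of the chromosome 9 flanks.

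**Figure D2:**
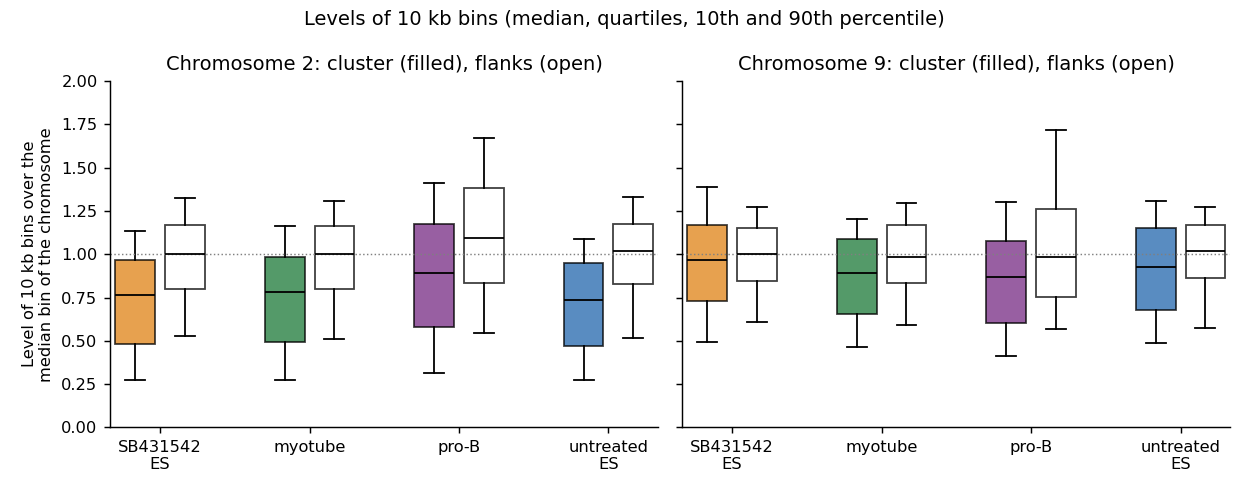
Levels of 10 kb bins over the chromosome median in each cluster (filled boxes) and its flanks (open boxes) by library; boxes give the median and quartiles, whiskers the 10th and 90th percentile. On chromosome 2 the filled boxes sit below the open ones in all 4 libraries, with cluster medians of 0.763 with SB431542, 0.782 in myotubes, 0.891 in pro-B cells and 0.733 in untreated ES cells, and on chromosome 9 the boxes overlap over most of their range.

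Among bins with a mean of at least 20 positions over the 4 libraries (431 on chromosome 2 and 334 on chromosome 9), the lowest by mean level on chromosome 2 was chr2:87120001-87130000. It held 25 positions with SB431542, 22 in myotubes, 13 in pro-B cells and 21 in untreated ES cells. The highest was chr2:89640001-89650000, with 78 positions with SB431542, 86 in myotubes, 116 in pro-B cells and 73 in untreated ES cells. Pro-B cells were thus the lowest library in the lowest bin and the highest library in the highest bin. The bins next in order at the low end differed. Pro-B cells had the highest level of the 4 libraries in chr2:86370001-86380000 (0.400) and in chr2:86240001-86250000 (0.473). On chromosome 9 the lowest bin was chr9:37190001-37200000, with 22 positions with SB431542, 20 in myotubes, 18 in pro-B cells and 21 in untreated ES cells. The highest there, chr9:40470001-40480000, held 62 with SB431542, 61 in myotubes, 189 in pro-B cells and 71 in untreated ES cells, so pro-B cells alone were high in it. The remaining 3 lowest bins of each cluster had mean levels between 0.357 and 0.371, and the remaining 3 highest between 1.44 and 1.499.

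Reads with 2 places in the genome were far more frequent in the chromosome 2 cluster than in its surroundings. They are those of the second section of the deposited files, which is inferred to hold a line for each place. They made up 23.3% (22.8 to 23.8) of all lines there with SB431542, 24.1% (23.6 to 24.6) in myotubes, 22.5% (22.1 to 23.0) in pro-B cells and 23.0% (22.5 to 23.5) in untreated ES cells. In the flanks the shares were 4.03% with SB431542, 3.89% in myotubes, 3.60% in pro-B cells and 3.98% in untreated ES cells, and over all autosomes they lay between 5.75% and 5.96%. The share peaked in the same step that had the lowest level, chr2:86000001-86500000, at 45.0% with SB431542, 41.0% in myotubes, 41.8% in pro-B cells and 42.7% in untreated ES cells. The chromosome 9 cluster held 10.5% of such lines with SB431542, 11.7% in myotubes, 10.6% in pro-B cells and 10.7% in untreated ES cells. Its distal flank held between 2.30% and 2.55% in the 4 libraries. Its proximal flank held 12.2% with SB431542, 13.5% in myotubes, 8.93% in pro-B cells and 11.6% in untreated ES cells.

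**Figure D3:**
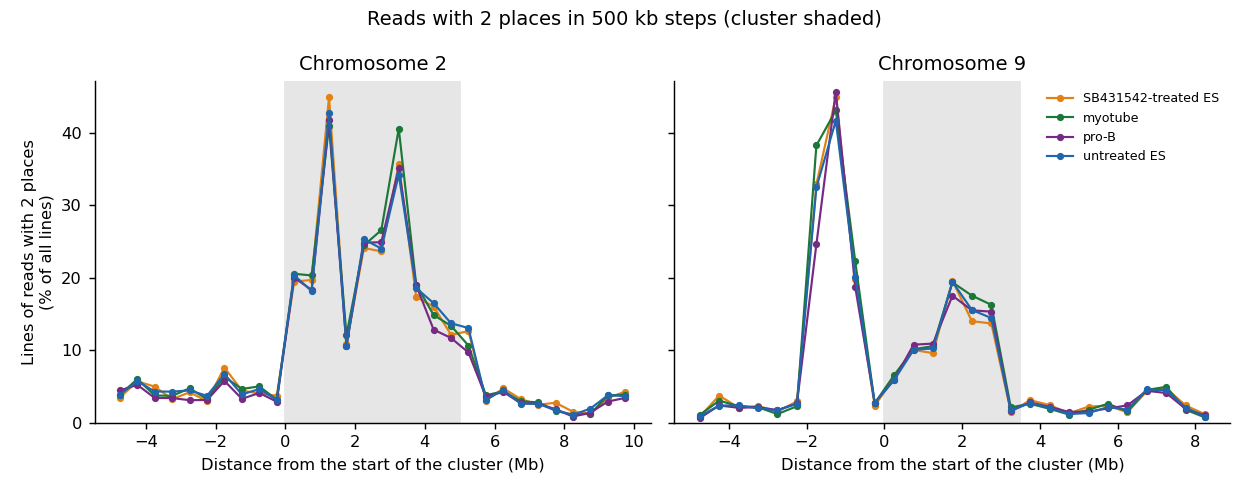
Lines of reads with 2 places as a percentage of all lines, in 500 kb steps across each cluster (shaded) and its 5 Mb flanks; lines are the 4 libraries. Peaks lie inside the chromosome 2 cluster (45.0% with SB431542 in the highest step) and in the proximal flank of chromosome 9. In that flank chr9:35500001-36000000 reached 45.0% with SB431542, 43.1% in myotubes, 45.7% in pro-B cells and 41.7% in untreated ES cells. Myotubes (38.3%) and pro-B cells (24.6%) stood apart in the step before it, which starts 2 Mb before the cluster.

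Stretches over 500 bp in which no library had a read with 1 place were also more frequent in the clusters. There were 917 of them in the chromosome 2 cluster, summing to 1186 kb or 23.7% of its length, against 13.8% of its flanks. In the chromosome 9 cluster 457 stretches made up 15.9% of the length, against 8.31% of the flanks. The flanks were unlike: the share was 18.65% in the proximal and 8.93% in the distal flank on chromosome 2. On chromosome 9 it was 13.7% in the proximal and 2.9% in the distal flank. The ratio of cluster to flanks was recomputed over the remaining length, in positions per 10 kb. On chromosome 2 it was then 0.855 (0.842 to 0.869) with SB431542, 0.890 (0.876 to 0.905) in myotubes, 0.894 (0.880 to 0.907) in pro-B cells and 0.824 (0.811 to 0.838) in untreated ES cells. On chromosome 9 it was 1.06 (1.04 to 1.07) with SB431542, 0.967 (0.9504 to 0.985) in myotubes, 0.883 (0.867 to 0.899) in pro-B cells and 0.998 (0.982 to 1.02) in untreated ES cells. With reads of 2 places counted at a weight of 0.5 the chromosome 2 ratios were 0.851 with SB431542, 0.891 in myotubes, 0.887 in pro-B cells and 0.819 in untreated ES cells. Under each of these 2 measures the chromosome 2 cluster stayed below its flanks in all 4 libraries. The rise in its ratios was bound to occur. The empty stretches were found in these same libraries, and the cluster holds more of them, and more reads with 2 places, than its flanks. Why the stretches were empty was not tested. Reads with more than 2 places are not in the files, and what they would add was not tested.

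SB431542-treated and untreated ES cells were compared to ask whether blocking TGF-beta signalling alters H3 in the clusters. The chromosome 2 cluster had a ratio of 1.03 (1.01 to 1.05), with 0.989 (0.978 to 1.00) in the flanks, and the chromosome 9 cluster a ratio of 1.05 (1.03 to 1.08), with 0.995 (0.984 to 1.01) in the flanks. Over the 10 steps of the chromosome 2 cluster the ratio lay between 0.980 and 1.06, and no step's interval left 1. On chromosome 9, 5 of the 7 steps had an interval above 1, the highest ratio being 1.13. Of the 765 cluster bins with a mean of at least 20 positions, 2 were at least 2-fold higher (0.141% of autosomal bins) and 1 at least 2-fold lower (0.0744%) with SB431542. The higher bin on chromosome 2, chr2:88180001-88190000, held 30 positions with SB431542, 24 in myotubes, 52 in pro-B cells and 14 in untreated ES cells, so that untreated ES cells stood below the other 3 libraries. The SD of the log2 ratio over bins was 1.01 times that of counting alone in the chromosome 2 cluster and 1.04 times in the chromosome 9 cluster, so bins differed little beyond counting error.

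Myotubes were set against untreated ES cells to ask how the clusters differ between differentiated muscle cells and pluripotent cells. The ratio of myotubes to untreated ES cells was 1.06 (1.04 to 1.08) in the chromosome 2 cluster, with 0.981 (0.970 to 0.993) in its flanks, and 0.949 (0.929 to 0.969) in the chromosome 9 cluster, with 0.980 (0.968 to 0.991) in its flanks. The clusters thus lay on opposite sides of 1. By the 2-fold rule 1 of the 765 bins was higher in myotubes (0.554% of autosomal bins) and 4 were lower (0.492%). The higher bin, chr2:88440001-88450000, held 46 positions in myotubes against 17 in untreated ES cells, a ratio of 2.85 (1.61 to 5.31), and it held 13 with SB431542 and 17 in pro-B cells. The myotube level there was 0.836, under the chromosome median, and the other 3 libraries stood between 0.220 and 0.309.

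Of the 3 lowest myotube ratios on chromosome 2, a pair came from neighbouring bins that were low in both differentiated lines. The bin chr2:85930001-85940000 held 42 positions with SB431542, 8 in myotubes, 15 in pro-B cells and 48 in untreated ES cells. The next bin, chr2:85940001-85950000, held 55 with SB431542, 22 in myotubes, 16 in pro-B cells and 56 in untreated ES cells. Both ES libraries stood above both lines in each bin. Inside them, over the 15.8 kb of chr2:85931733-85947512, myotubes and pro-B cells had no read with 1 place, against 72 in SB431542-treated and 75 in untreated ES cells. This stretch was picked because it was empty in both lines, so the absence of their reads in it is a description. Over the whole bins the myotube ratios to untreated ES cells were 0.176 in the first bin and 0.414 in the next. The pro-B ratios were 0.330 and 0.301. Lines of reads with 2 places were present in the same interval, namely 35 lines with SB431542, 29 in myotubes, 13 in pro-B cells and 25 in untreated ES cells. The autosomes held 393 stretches over 1 kb that were empty in both lines and held at least 10 positions in each ES library, and this was the only one in the clusters, which hold 0.356% of autosomal bins. Of the 5 autosomal stretches over 1 kb that were empty in both ES libraries and held at least 10 positions in each line, 0 lay in the clusters. Stretches over 10 kb empty in a single line, with at least 30 positions in each of the other libraries, numbered 23 for myotubes and 19 for pro-B cells on the autosomes, and 0 of them lay in the clusters. Without an input library, DNA copy number and H3 recovery cannot be told apart at the interval empty in both lines.

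Pro-B cells stood above untreated ES cells in each 500 kb step of the chromosome 2 cluster, and below them over the chromosome 9 cluster as a whole. By bin, pro-B cells were above in 351 of 431 bins of the chromosome 2 cluster (81.4%). The share was 62.5% in its flanks and 55.0% over all autosomal bins. The ratio of pro-B to untreated ES cells was 1.24 (1.22 to 1.27) in the chromosome 2 cluster and 1.15 (1.13 to 1.16) in its flanks. In all 10 steps of that cluster the interval lay above 1, with ratios from 1.09 to 1.41, while 13 of the 20 flank steps had an interval above 1. On chromosome 9 the ratio was 0.962 (0.941 to 0.982) in the cluster and 1.09 (1.08 to 1.10) in the flanks, with 1 of 7 cluster steps above 1 and 3 below by their intervals. With SB431542-treated in place of untreated ES cells, the cluster ratios were 1.21 on chromosome 2 and 0.912 on chromosome 9. When scaled to the flanks instead of the chromosome median, the chromosome 2 ratio of pro-B to untreated ES cells was 1.08 and the chromosome 9 ratio 0.884. Scaled to autosomal positions they were 1.19 and 0.872, so the size of the difference depended on the scale.

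**Figure D4:**
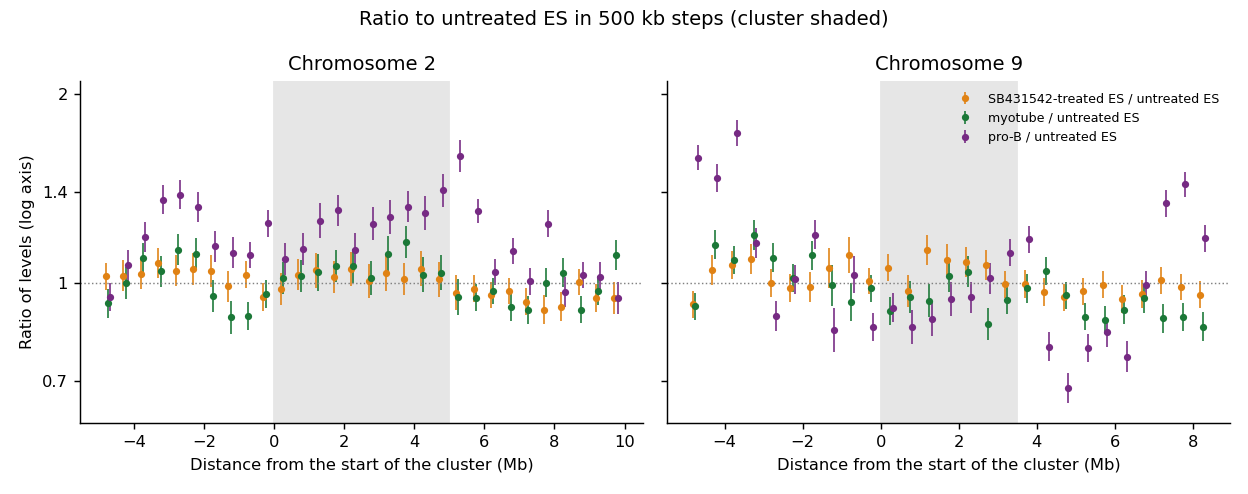
Ratio of levels to untreated ES cells (log axis) in 500 kb steps across each cluster (shaded) and its flanks, with 95% counting intervals; colours are SB431542-treated ES cells, myotubes and pro-B cells. Pro-B points lie above 1 in all 10 steps of the chromosome 2 cluster, and on chromosome 9 they range more widely in the flanks (0.682 to 1.74) than in the cluster (0.853 to 1.12).

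By the 2-fold rule, 17 of the 765 cluster bins were higher in pro-B cells (2.22%, against 3.63% of autosomal bins) and 6 were lower (0.784%, against 0.794%), each relative to untreated ES cells. Of the higher bins 15 were on chromosome 2 (3.48% of its bins, 3.51% in the flanks) and 2 on chromosome 9 (0.599%, against 5.41% in the flanks). The 2 on chromosome 9, chr9:37230001-37240000 and chr9:40470001-40480000, lay in the outermost 500 kb steps of that cluster. Levels in those steps ran from 0.971 in myotubes to 1.25 in pro-B cells. No run of 3 or more neighbouring bins passed the rule in either cluster. The highest pro-B ratio on chromosome 2 was 3.92 (2.14 to 7.65) in chr2:88180001-88190000, the bin named above, in which pro-B cells held 52 positions, the most of the 4 libraries, and untreated ES cells 14, the fewest. Pro-B cells were also the highest library in chr9:40470001-40480000, near the distal border of the chromosome 9 cluster, with 189 positions in pro-B cells, 62 with SB431542, 61 in myotubes and 71 in untreated ES cells, a ratio to untreated ES cells of 2.96 (2.24 to 3.95). Its level in pro-B cells, 3.57 times the chromosome median, was the highest given here for any named bin.

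At the scale of 1 kb, windows were counted in which a library held 20 or more positions and its scaled count was 3 or more times that of any other library. Pro-B cells had 4 in the clusters (0.188% of autosomal windows), 1 of 4529 on chromosome 2 and 3 of 3300 on chromosome 9, beside 14 in the chromosome 2 flanks and 27 in the chromosome 9 flanks. Of these pro-B windows, the 3 in the chromosome 9 cluster all lay in its outermost 500 kb steps, and none lay between those steps. The other libraries had 0 in either cluster, against autosomal shares of 0.00174% with SB431542, 0.00535% in myotubes and 0.00116% in untreated ES cells. The strongest lay inside the bin just named, chr9:40474001-40475000, with 29 positions in pro-B cells, 3 with SB431542, 5 in myotubes and 5 in untreated ES cells. The chromosome 2 window, chr2:88189001-88190000, held 25 in pro-B cells, 4 with SB431542, 7 in myotubes and 3 in untreated ES cells, and it lies inside the chromosome 2 bin with the highest pro-B ratio. All 4 windows were chosen by this rule, so their contrast is a description.

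Between the differentiated lines, myotubes over pro-B cells gave 0.852 (0.836 to 0.868) in the chromosome 2 cluster, close to the 0.855 (0.845 to 0.865) of its flanks. On chromosome 9 the ratio was 0.987 (0.966 to 1.01) in the cluster and 0.901 (0.890 to 0.912) in the flanks. By the 2-fold rule 3 bins were higher (0.975% of autosomal bins) and 13 lower (1.70%, against 4.28%) in myotubes than in pro-B cells. The lowest ratios were 0.373 in chr2:87080001-87090000, with 22 positions in myotubes and 59 in pro-B cells, and 0.317 in chr9:40470001-40480000, the pro-B bin above. The highest on chromosome 9 was 2.27 in chr9:38930001-38940000, with 60 positions in myotubes and 26 in pro-B cells.

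Where pro-B cells were one of the pair, the log2 ratio between libraries spread less over the bins of the clusters than over those of the flanks. The SD of the log2 ratio of pro-B to untreated ES cells was 1.198 times that of counting alone in the chromosome 2 cluster, against 1.48 times in its flanks and 1.67 times over all autosomal bins. On chromosome 9 it was 1.28 times in the cluster and 1.99 times in the flanks. The SD left after subtracting counting variance was 0.21 in the chromosome 2 cluster against 0.30 in its flanks, and 0.25 in the chromosome 9 cluster against 0.49 in its flanks, on the log2 scale. For myotubes over pro-B cells the multiples were 1.17 against 1.46 on chromosome 2 and 1.26 against 1.93 on chromosome 9. For myotubes over untreated ES cells cluster and flanks were alike, at 1.08 against 1.10 on chromosome 2 and 1.13 against 1.17 on chromosome 9. Flank bins are deeper than cluster bins, which gives them less counting error. With flank bins held to no more than the upper quartile of cluster bins, the multiple for pro-B over untreated ES cells was 1.25 in the chromosome 2 flanks and 1.67 in the chromosome 9 flanks. On chromosome 2 that stood close to the 1.198 of the cluster, and on chromosome 9 it stood above the 1.28 of the cluster. For myotubes over pro-B cells the same limit gave 1.24 in the chromosome 2 flanks and 1.56 in the chromosome 9 flanks. Without the limit, the chromosome 2 flanks differed for that pair, at 1.21 in the proximal and 1.69 in the distal flank. The proximal value was close to the 1.17 of the cluster.

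**Figure D5:**
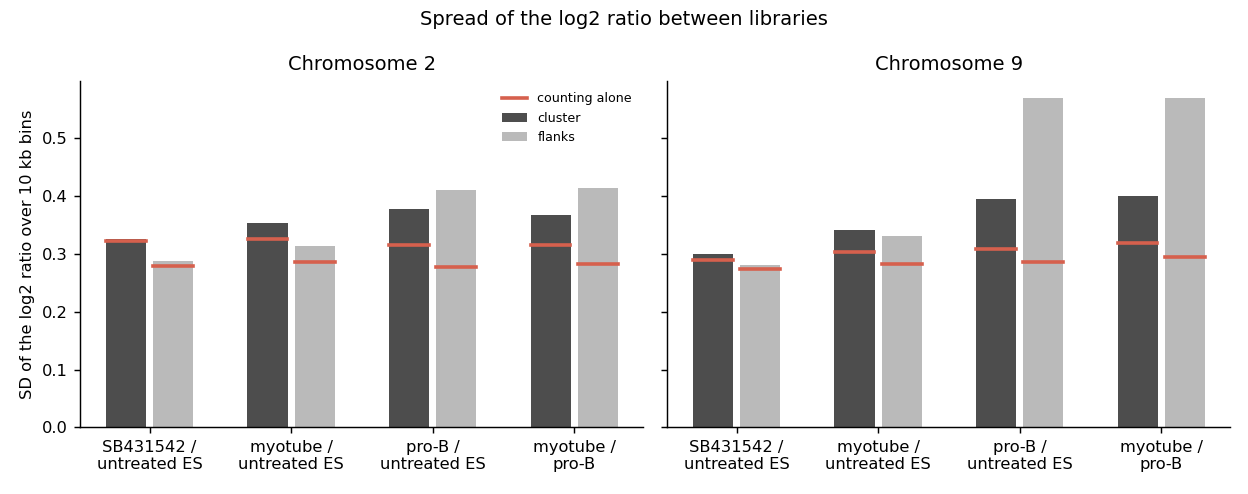
SD of the log2 ratio between libraries over 10 kb bins with a mean of at least 20 positions, in each cluster (dark bars) and its flanks (light bars) for the 4 comparisons; red lines mark the SD that counting alone gives. Both comparisons with pro-B cells stand well above counting in the flanks, most on chromosome 9, and less so in the clusters.

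As a description across bins, which share libraries, depth and the places open to unique reads, pro-B and untreated ES levels correlated with r = 0.752 over 334 bins of the chromosome 9 cluster and r = 0.436 over 961 bins of its flanks. On chromosome 2 the values were 0.773 over 431 bins and 0.672 over 939 bins. For SB431542-treated against untreated ES cells they were 0.823 in the cluster and 0.735 in the flanks on chromosome 9, and 0.812 and 0.792 on chromosome 2. The plus and minus strand of a single library gave r between 0.584 and 0.746 in the clusters. Each strand holds only part of a library's positions, and r also depends on how widely the bins vary. These values are thus not to be set against those between libraries.

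The spacing of reads was compared with each flank, since the flanks of chromosome 9 differed from each other. Pairs of positions on opposite strands at 30 to 80 bp were set, per bp, against pairs at 500 to 1000 bp. In the chromosome 2 cluster this enrichment was 1.37 (1.31 to 1.44) with SB431542, 1.23 (1.17 to 1.29) in myotubes, 1.36 (1.31 to 1.42) in pro-B cells and 1.26 (1.199 to 1.33) in untreated ES cells, against 1.299 with SB431542, 1.16 in myotubes, 1.35 in pro-B cells and 1.26 in untreated ES cells in its flanks. In the chromosome 9 cluster it was 1.32 (1.26 to 1.38) with SB431542, 1.18 (1.11 to 1.25) in myotubes, 1.42 (1.35 to 1.495) in pro-B cells and 1.33 (1.27 to 1.397) in untreated ES cells. Its proximal flank stood at 1.755 with SB431542, 1.46 in myotubes, 1.42 in pro-B cells and 1.48 in untreated ES cells, and its distal flank at 1.28 with SB431542, 1.15 in myotubes, 1.302 in pro-B cells and 1.201 in untreated ES cells. Pairs on the same strand at 50 to 250 bp were enriched between 1.11 and 1.15 times in the chromosome 2 cluster and between 1.07 and 1.102 times in its flanks. In the chromosome 9 cluster the same-strand enrichment was 1.103 with SB431542, 1.09 in myotubes, 1.098 in pro-B cells and 1.13 in untreated ES cells. It was 1.44 with SB431542, 1.47 in myotubes, 1.25 in pro-B cells and 1.39 in untreated ES cells in the proximal flank, and 1.05 with SB431542, 1.096 in myotubes, 1.098 in pro-B cells and 1.07 in untreated ES cells in the distal flank. The proximal flank of chromosome 9 thus stood above the cluster on the same strand in all 4 libraries, and the distal flank did not. Both strands were about equally covered, with plus-strand shares between 49.1% and 50.7%.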

How the data were processed

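Per the file headers, the authors aligned reads to mm8 using Bowtie, whose version is not given in the sources used here; the options allowed 2 mismatches in the first 36 bases, a quality limit of 70 and up to 2 places per read. The deposited values are signed genome positions, 1 per read, negative on the minus strand; they are neither a count nor a score, and repeated reads were kept. The files' second section was read as reads with 2 places, both listed, which is an inference from its name, the options and line counts. Here repeats at a position and strand were counted once, which removed between 2.33% and 5.16% of reads in the clusters, and bins of 10 kb were divided by the library's median bin on the chromosome. Ratios have exact conditional binomial intervals, levels exact Poisson intervals and shares exact Clopper-Pearson intervals (95%), for counting error only, since PCR reads are not independent molecules. Bins entered ratios at a mean of 20 or more positions, and log2 ratios had 0.5 added to counts. Bins were named by a fixed rule: the 4 highest and lowest by mean level, and the 3 highest and lowest by each ratio. Members, lists and rules were chosen with earlier results of these data known. Counting steps were tested on simulated data. Python 3.11.15, numpy 2.4.6, scipy 1.17.1, pandas 2.3.3 and matplotlib 3.10.9 were used. Depth scaling, repeats, reads with 2 places, flank length, bin size, thresholds and the ES library were varied.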

Additional observations from a re-analysis of the deposited data

Results flagged for a closer look

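Against its proximal flank alone, the chromosome 9 cluster stood above 1 in both ES libraries, at 1.042 with SB431542 and 1.008 (0.989 to 1.03) in untreated ES cells, and below 1 in both differentiated lines, at 0.911 in myotubes and 0.809 in pro-B cells. It is given here because the ES libraries lay on one side of 1 and the lines on the other. The difference was not tested, with 1 library per group, and the interval of untreated ES cells includes 1. The same flank holds the low steps between chr9:35500001 and chr9:36500000 and a higher share of lines of reads with 2 places than the cluster in 3 of the 4 libraries. In it pro-B cells had a ratio of 1.199 (1.18 to 1.22) to untreated ES cells and myotubes a ratio of 1.05 (1.03 to 1.07). Their part in the result was not tested.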

How the results depend on the processing

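No paired analysis was possible because each group has 1 library, so there was also no replicate to leave out.

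The chromosome 2 ratio of cluster to flanks stayed below 1 under every alternative run. With reads of 2 places included it was 0.943 (SB431542), 0.991 (myotube), 0.981 (pro-B) and 0.906 (untreated ES), and with these at a weight of 0.5 it was 0.851 (SB431542), 0.891 (myotube), 0.887 (pro-B) and 0.819 (untreated ES). Over bins with a mean of at least 20 it was 0.801 (SB431542), 0.833 (myotube), 0.837 (pro-B) and 0.771 (untreated ES), and without empty stretches 0.855 (SB431542), 0.890 (myotube), 0.894 (pro-B) and 0.824 (untreated ES). Against the proximal flank alone it was 0.780 (SB431542), 0.832 (myotube), 0.821 (pro-B) and 0.781 (untreated ES), and against the distal flank 0.730 (SB431542), 0.743 (myotube), 0.757 (pro-B) and 0.680 (untreated ES). With flanks of 2 Mb it was 0.720 (SB431542), 0.721 (pro-B) and 0.692 (untreated ES), and as a median over bins 0.817 (pro-B).

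The chromosome 9 ratio turned above 1 with SB431542 when reads of 2 places were included (1.03), with flanks of 2 Mb (1.01), without empty stretches (1.06) and against the proximal flank (1.04). It did so in pro-B cells with flanks of 2 Mb (1.01) and in untreated ES cells against the proximal flank (1.01). The cause was not tested. Elsewhere it was 0.955 (myotube), 0.865 (pro-B) and 0.977 (untreated ES) with reads of 2 places included, and 0.998 (SB431542), 0.921 (myotube), 0.837 (pro-B) and 0.946 (untreated ES) with these at a weight of 0.5. It was 0.967 (myotube), 0.883 (pro-B) and 0.998 (untreated ES) without empty stretches, and 0.897 (SB431542), 0.821 (myotube), 0.714 (pro-B) and 0.835 (untreated ES) without the outer 500 kb on each side. In myotubes it was 0.869 with all reads, 0.906 as a median, 0.920 with flanks of 2 Mb and 0.911 against the proximal flank. In pro-B cells it was 0.885 as a median, and in untreated ES cells 0.955 with flanks of 2 Mb. Against the distal flank it was 0.906 (SB431542), 0.863 (myotube) and 0.838 (untreated ES).

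Ratios between libraries whose interval left 1 kept their direction under every alternative run. On chromosome 2, with reads of 2 places, SB431542 over untreated ES was 1.05 and myotube over untreated ES 1.09, and myotube over SB431542-treated ES was 1.03. Pro-B over untreated ES was 1.19 scaled to autosomes, 1.22 as a median and 1.08 scaled to the flanks, and pro-B over SB431542-treated ES was 1.21. Myotube over pro-B was 0.892 scaled to autosomes, 0.878 as a median and 0.996 scaled to the flanks. On chromosome 9, scaling to autosomes gave 1.03 for SB431542, 0.918 for myotube and 0.872 for pro-B, each over untreated ES. Pro-B over untreated ES was also 0.940 as a median, 0.930 without the outer steps and 0.884 scaled to the flanks, and over SB431542-treated ES pro-B was 0.912 and myotube 0.9003. Myotube over pro-B on chromosome 9, whose interval includes 1, was 1.05 scaled to autosomes, 1.02 as a median, 1.04 without the outer steps and 1.096 scaled to the flanks.

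At 1.5-fold, counts of bins were 43 higher and 13 lower (SB431542), 38 higher and 28 lower (myotube) and 102 higher and 36 lower (pro-B) against untreated ES, and 30 higher and 95 lower for myotube over pro-B. In 50 kb bins all were 0 except 1 lower for myotube over pro-B. At a mean of 10 they were 5 higher and 3 lower for SB431542, 3 higher and 7 lower for myotube, and 5 higher for myotube over pro-B. With reads of 2 places they were 1 higher and 0 lower for SB431542, 2 higher and 1 lower for myotube, 8 higher for pro-B and 8 lower for myotube over pro-B. With all reads they were 0 lower for SB431542 and 4 higher for myotube. At 2 times the highest other library, 1 kb windows numbered 2 with SB431542, 1 in myotubes and 16 in pro-B cells. Autosomal shares at these other settings are not given here. These counts thus do not show whether the clusters differ from the autosomes.

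The spread multiple of the cluster minus that of the flanks kept its sign for every comparison with pro-B cells, but its size changed. On chromosome 2 it went from -0.294 to -0.0415 for myotube over pro-B against the proximal flank. With flank bins held to the upper quartile of cluster bins it was -0.0717 for that pair and -0.0566 for pro-B over untreated ES. On chromosome 9 that limit gave -0.307 and -0.389 for these pairs. For SB431542 over untreated ES on chromosome 2 it turned to 0.0214 at a mean of 10, 0.0152 against the distal flank and 0.00956 with flank bins held to the upper quartile of cluster bins. On chromosome 9 it turned to -0.0956 in 50 kb bins and -0.0198 with all reads. For myotube over untreated ES on chromosome 9 it turned to 0.00111 against the distal flank. The cause was not tested. Depth limits single bins: the counting SD of a cluster bin's log2 ratio lay between 0.29 and 0.33.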
